A study of Mus musculus with 6 samples.

Results

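The 44 genes described here act late in the cell cycle, from the G2 phase through mitosis to the separation of the daughter cells. They were chosen by name from what their products are known to do: cyclins and their kinase, the transcription factors that switch them on, the spindle, the kinetochore, the spindle checkpoint, the chromosomal passenger complex, condensin and the cytokinesis machinery. The choice was made with earlier results of these data known. All 44 were found among the 54532 genes of the deposited tables, and all 44 passed the filter of a mean of at least 1 FPKM (fragments counted per unit of exon length and of library size) over the 6 libraries, among 10540 genes tested in all.

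The study examined how PGAM5, a phosphatase of the mitochondrial outer membrane, affects inflammatory responses in macrophages. RNA was measured in iBMDMs, mouse bone marrow-derived macrophages immortalized with retroviruses carrying v-raf and v-myc. The cells carried either a control shRNA (shControl) or an shRNA against Pgam5 (PGAM5 KD), delivered by lentivirus, with 3 libraries of each. All 6 libraries came from cells treated with LPS at 100 ng/ml for 4 hours, so no untreated cells were measured. The v-myc and v-raf oncogenes keep these cells dividing, and they were shared by both groups. The sources used here do not say whether the 3 libraries of a group came from separate cultures, so the p-values measure only the spread between these libraries, and an effect of the knockdown cannot be told apart from another difference between the control and knockdown lines.

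Between 18163463 and 24388915 fragments per library were recovered from the deposited values. Pgam5, the targeted gene, was at 17.1, 13.0 and 13.4 FPKM in control and 4.33, 5.75 and 4.53 FPKM in PGAM5 KD libraries. Its log2 fold change was -1.40 ± 0.13 (SE, n = 3 per group). Of 8 macrophage markers, 7 were at or above 1 FPKM, Mrc1 being below it, and their summed level was 2802 to 2895 FPKM in control and 2526 to 2544 FPKM in PGAM5 KD libraries. Lyz2 made up most of that sum, with a mean of 1666 FPKM in control and 1265 FPKM in PGAM5 KD, and single markers moved both ways: Fcgr1 (3.25 times the control mean), Adgre1 (1.91), Itgam (1.85) and Cd14 (1.48) rose, and Csf1r (0.639), Lyz2 (0.76) and Cd68 (0.868) fell. The part of these macrophage genes in the values below was not tested. None of the 18 neutrophil, fibroblast and lymphocyte markers reached 1 FPKM, and 4 of the 6 markers of each type were at 0 in every library.

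Transcripts of most of these genes build up as cells move from S phase into G2 and fall after division, so in a bulk sample they follow the share of cells that is preparing to divide or dividing. In resting cells the DREAM complex, which holds a core called MuvB, keeps the genes off. In dividing cells MuvB joins first with B-MYB and then with FOXM1 to turn them on. MuvB meets DNA through its LIN54 subunit at an element with the letters TTTGAA, the cell cycle genes homology region, and the factor NF-Y binds CCAAT boxes close by. Bulk RNA cannot tell fewer cells in G2 and mitosis from less of the RNA in each such cell.

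The letters of these elements were looked up in the promoters of the members to see how many hold them. RefSeq promoter windows (build GRCm38.p6, 250 bases before to 50 bases after a gene's start) were matched for 36 of the 44 members, without Kif20a, Cdc25c, Ccna2, Incenp, Aurkb, Tpx2, Smc4 and Foxm1, and both strands were searched. TTTGAA was present in 27 of 36 windows, or 75.0%, against 20.2% of 27025 genes with a window and 14.5% of the 7679 tested genes with one. CCAAT was also present in 27 of 36 windows, or 75.0%, against 41.1% of all genes, and 23 of 36, or 63.9%, held both TTTGAA and CCAAT against 8.97% of all genes. The variant TTTAAA was in 9 of 36 windows, or 25.0%, against 14.9% of all genes, and 2 pairs of hits overlapped in the members' windows. The letters describe these windows only and do not show that a factor binds there.

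The 5 promoters below belong to members that stand at different points of the response, so that their sequences can be read beside their values: Cdk1 did not pass the test, Ccnb2 rose, and Mki67, Top2a and Kif11 fell. Each is printed 5′ to 3′ on the gene's own strand, with TTTGAA and CCAAT in capitals, or TTCAAA and ATTGG where the element lies on the other strand. Positions were counted back from the RefSeq start, with -1 the base before it. The Cdk1 stretch, of 124 bases, is chr10:69352939-69353062 (minus strand), and the others, of 150 bases each, are chr9:70421555-70421704 (minus strand) for Ccnb2, chr7:135716380-135716529 (minus) for Mki67, chr11:99024190-99024339 (minus) for Top2a and chr19:37376232-37376381 (plus) for Kif11.
Cdk1: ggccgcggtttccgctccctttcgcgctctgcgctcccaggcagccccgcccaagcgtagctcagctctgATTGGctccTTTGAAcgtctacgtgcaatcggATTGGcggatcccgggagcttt
Ccnb2: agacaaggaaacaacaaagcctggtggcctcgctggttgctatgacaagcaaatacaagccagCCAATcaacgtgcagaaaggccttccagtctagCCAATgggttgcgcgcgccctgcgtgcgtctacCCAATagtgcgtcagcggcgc
Mki67: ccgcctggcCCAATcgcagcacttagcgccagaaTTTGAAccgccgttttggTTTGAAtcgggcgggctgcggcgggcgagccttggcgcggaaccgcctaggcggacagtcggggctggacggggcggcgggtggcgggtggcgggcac
Top2a: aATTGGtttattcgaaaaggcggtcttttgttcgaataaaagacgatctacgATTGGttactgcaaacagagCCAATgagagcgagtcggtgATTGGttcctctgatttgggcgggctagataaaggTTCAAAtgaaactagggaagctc
Kif11: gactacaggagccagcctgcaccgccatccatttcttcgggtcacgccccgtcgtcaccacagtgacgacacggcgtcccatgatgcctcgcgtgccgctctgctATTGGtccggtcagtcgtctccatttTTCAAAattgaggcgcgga

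In Cdk1, TTTGAA began at position -71 between CCAAT boxes at -80 and -48. Ccnb2 held 3 CCAAT boxes, at -87, -54 and -21, and its TTTGAA lay outside the printed stretch. Mki67 held 2 copies of TTTGAA, at -116 and -98, with 1 CCAAT box at -141. Top2a held 4 CCAAT boxes and 1 TTTGAA element at -23, and Kif11 held 1 of each, at -45 and -19. Of the 27 members with TTTGAA, 1 rose (3.70%) and 7 fell (25.9%) after PGAM5 knockdown, with a median log2 fold change of -0.03, where 16.8% of all genes tested rose and 14.9% fell. Of the 9 without it (Ccnb1, Cdc25b, Mybl2, Birc5, Bub1, Mad2l1, Cenpe, Nuf2 and Nusap1), 1 rose and 0 fell at an adjusted p below 0.05 by limma, with a median of 0.01. At an unadjusted p below 0.05 Cenpe was also lower and Bub1 higher, and Cenpe was called lower by voom. That split rests on the FPKM scale: on TPM 9 of the 27 (33.3%) and 3 of the 9 (33.3%: Cdc25b, Mad2l1 and Cenpe) were called lower and none higher. The difference between these sets was not tested. Cdc25c, Incenp and Foxm1, which fell, and Ccna2, which rose, had no window and are in neither set.

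The late cell cycle genes were strongly expressed in these LPS-treated cells. Their mean level over the 6 libraries ran from 7.47 FPKM (Ndc80) to 96.4 FPKM (Cdc20), with a median of 27.8 FPKM against 8.84 FPKM over all genes tested, and each member was covered by 786 to 14714 fragments in a library. Replicates lay close together: the median coefficient of variation of the members was 3.24% in control and 3.89% in PGAM5 KD libraries, against 4.51% and 4.69% for the 5300 tested genes in the same range of levels.

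PGAM5 knockdown left most of these transcripts within a narrow band of the control level. Log2 fold changes of FPKM + 1 ran from -0.56 (Cdc25c) to 0.20 (Nusap1), with a median of -0.023 against 0.013 for all genes tested. The size of the change, without its sign, had a median of 0.093 against 0.155 for all genes, and 38 of the 44 members, or 86.4%, were within 0.2 of no change, against 60.9% of all genes. By limma with Benjamini-Hochberg adjustment over all genes, 13 of 44 members, or 29.5%, were called at an adjusted p below 0.05, close to the background of 31.7% of all genes. Of these 3 rose, or 6.82% against a background of 16.8%, and 10 fell, or 22.7% against 14.9%. Without control replicate 1 or without PGAM5 KD replicate 3, 1 member was called higher (2.27%, against 13.2% and 11.5% of all genes). None passed the additional threshold of a log2 fold change beyond 1 in either direction, which 1.32% of all genes passed. That count was also 0 at an unadjusted p below 0.05 and by voom, and the 95% confidence interval of every member lay within that limit.

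For 24 of the 44 members, or 54.5%, the lowest library of the higher group lay above every library of the other, 10 with PGAM5 KD higher and 14 with PGAM5 KD lower, against a background of 47.1% of all genes. An exact two-sided permutation test of 3 libraries against 3 cannot give a p below 0.1. For the 31 members that were not called, the confidence intervals lay between -0.35 and 0.39, and 29 of the 31 lay within 0.32 of no change on the log2 scale, which is a 1.25-fold change either way.

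The split between members that rose and fell moved with the scaling. Summed over all genes, FPKM was 304393 to 304889 in the control libraries and higher, at 317936 to 324298, after knockdown, and rescaling to TPM (transcript shares of a common total) takes that difference away. On TPM, 0 members were called higher against 10.3% of all genes, with 1 member higher at an unadjusted p below 0.05, and 15, or 34.1%, were called lower against 21.7% of all genes. All 10 members that fell on FPKM were also called lower on TPM, while Ccna2, Ccnb2 and Nusap1 were no longer called. Cdc25b, Bub1b, Mad2l1, Ttk and Cenpe were called lower on TPM alone of these 2 scales.

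**Figure D1:**
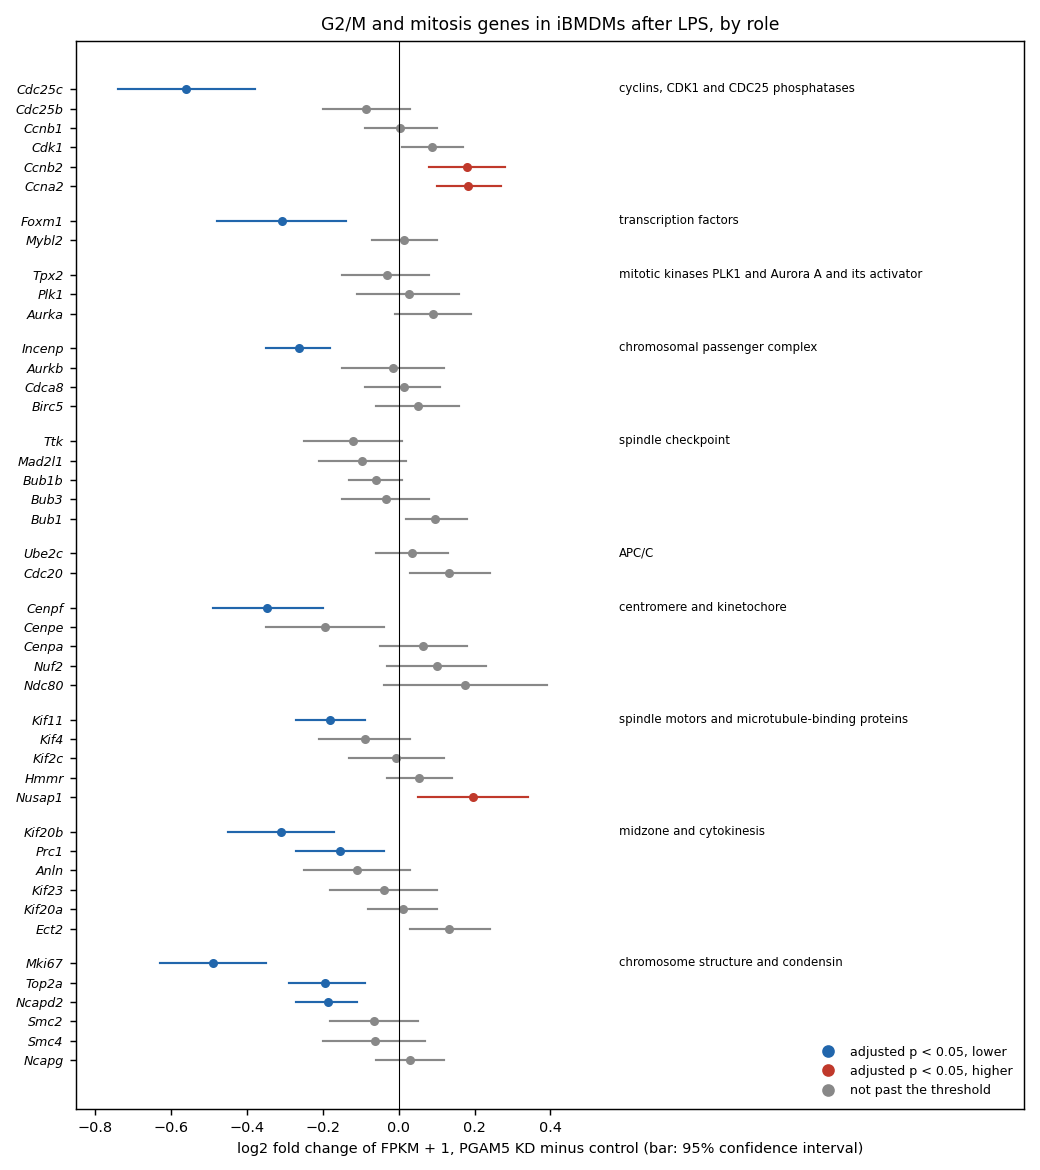
Log2 fold change of FPKM + 1 (PGAM5 KD minus control, x axis) for each of the 44 genes, grouped by role, with 95% confidence intervals from 3 libraries per group; blue marks genes lower and red genes higher at an adjusted p below 0.05. The 10 lower genes are spread over 7 of the 10 roles and reach -0.56, while the 3 higher genes, which were not called on TPM, stay at or below 0.20.

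Cyclins A and B and their partner kinase CDK1 drive cells into mitosis, and CDC25 phosphatases remove the phosphates that hold CDK1 inactive. Of the 6 members in this role 2 rose, 1 fell and 3 were not called, and on TPM neither rise was called. Counts within a role are small and describe these genes only, beside the 16.8% of all genes that rose and the 14.9% that fell. Cdc25c (ENSMUSG00000044201), whose product acts on CDK1 at the entry to mitosis, had the largest fall of all 44 members. Its level was 11.7, 14.1 and 12.7 FPKM in control and 8.04, 8.79 and 8.26 FPKM in PGAM5 KD libraries, with no overlap. That is a change of -34.9% in the mean and a log2 fold change of -0.56 ± 0.07 (SE, n = 3 per group, adjusted p = 0.00183). Cdc25b, a relative that acts earlier in G2, was not called on FPKM (log2 fold change -0.09, 95% confidence interval -0.20 to 0.03).

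Cyclin A2, which works in S phase and G2, and cyclin B2 were slightly higher in the knockdown cells. Ccna2 (ENSMUSG00000027715, chromosome 3, 36564865 to 36572150, minus strand) was at 53.8, 55.7 and 55.9 FPKM in control and 62.4, 64.5 and 61.4 FPKM in PGAM5 KD libraries. The log2 fold change of Ccna2 was 0.18 ± 0.03 (SE, adjusted p = 0.00778), and 0.11 on TPM with an adjusted p of 0.058. Part of Ccna2 lies across Exosc9 on the opposite strand, which shares 510 exon bases, 12.5% of the exon length of Ccna2, and whose mean was 8.68 FPKM in control and 9.81 FPKM in PGAM5 KD. The labels do not say whether counting used strand, so it is not known how reads in such an overlap were assigned.

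Ccnb2 (ENSMUSG00000032218, chromosome 9, 70407692 to 70421547, minus strand) was at 59.0, 61.5 and 57.2 FPKM in control and 67.0, 64.7 and 70.3 FPKM in PGAM5 KD libraries, again with no overlap. Its log2 fold change was 0.18 ± 0.04 (SE, adjusted p = 0.0207), and the call was lost without control replicate 1 (adjusted p = 0.0579), without control replicate 3 (0.0673) or without PGAM5 KD replicate 3 (0.0621). Cyclin B1, the other B-type cyclin, overlapped between the groups. Ccnb1 was at 62.4, 66.6 and 65.2 FPKM in control and 63.9, 63.7 and 67.2 FPKM in PGAM5 KD libraries, a log2 fold change of 0.00 with a confidence interval of -0.09 to 0.10. The 7 genes of similar sequence carried 1.82% as many fragments as Ccnb1, and their sum with Ccnb1 had a log2 fold change of 0.01. Cdk1 was at 30.8, 31.0 and 30.4 FPKM in control and 32.0, 33.1 and 33.0 FPKM in PGAM5 KD libraries. Those libraries did not overlap, but Cdk1 was not called (log2 fold change 0.09 ± 0.03, adjusted p = 0.0914).

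**Figure D2:**
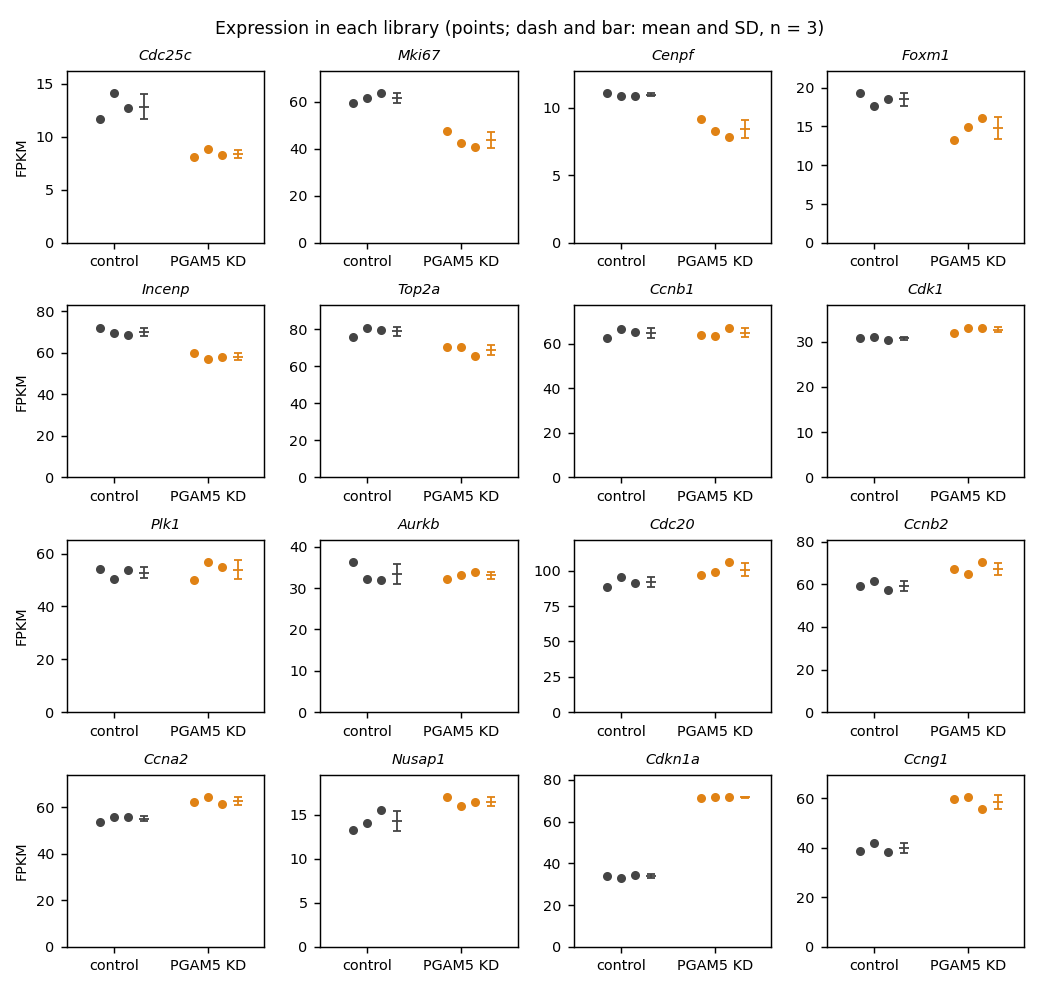
FPKM in each library (points, y axis from 0) for 14 of the late cell cycle genes and for Cdkn1a and Ccng1, in control and PGAM5 KD iBMDMs, with the mean and SD of 3 libraries beside the points. Cdc25c, Mki67, Cenpf, Foxm1, Incenp and Top2a are lower without overlap, Ccnb1, Plk1 and Aurkb overlap, and Cdkn1a rises from 33.8 to 71.6 FPKM.

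Of the 2 transcription factors of the program 1 fell, where 14.9% of all genes did, and 1 was not called. The difference between them was not tested. Foxm1, which activates genes of G2 and mitosis, was at 19.3, 17.6 and 18.6 FPKM in control and 13.3, 14.9 and 16.1 FPKM in PGAM5 KD libraries, without overlap. Its log2 fold change was -0.31 ± 0.07 (SE, adjusted p = 0.018). The call was lost without control replicate 1 (adjusted p = 0.0577) and without control replicate 3 (0.055). Mybl2, which encodes B-MYB, was at 40.3, 38.7 and 41.5 FPKM in control and 40.2, 40.8 and 40.5 FPKM in PGAM5 KD libraries, and the groups overlapped. Its log2 fold change was 0.01, with a confidence interval of -0.07 to 0.10.

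None of the 3 members for the mitotic kinases PLK1 and Aurora A and the Aurora A activator TPX2 was called, by limma on FPKM or in any alternative tried, and none had a confidence interval that left out 0, which 18 of all 44 members had. Plk1, whose kinase acts in mitotic entry, spindle assembly and cytokinesis, was at 54.1, 50.5 and 54.0 FPKM in control and 49.9, 56.7 and 55.1 FPKM in PGAM5 KD libraries. The groups overlapped, and the confidence interval of the log2 fold change ran from -0.11 to 0.16. Aurka and Tpx2 had log2 fold changes of 0.09 and -0.03.

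The chromosomal passenger complex joins the kinase Aurora B to the scaffold INCENP, survivin and borealin, and corrects faulty attachments of chromosomes to the spindle. Its scaffold was lower in PGAM5 KD cells: Incenp (ENSMUSG00000024660, chromosome 19, 9872296 to 9899551, minus strand) was at 72.0, 69.6 and 68.3 FPKM in control and 59.9, 56.9 and 57.7 FPKM in PGAM5 KD libraries. The log2 fold change of Incenp was -0.26 ± 0.04 (SE, adjusted p = 0.0022). The other three subunits were not called. Aurkb, the kinase, was at 36.2, 32.1 and 31.9 FPKM in control and 32.1, 33.2 and 33.8 FPKM in PGAM5 KD libraries, with overlap and a confidence interval of the log2 fold change of -0.15 to 0.12. Birc5, which encodes survivin, was at 22.6, 24.2 and 22.2 FPKM in control and 23.3, 24.7 and 23.6 FPKM in PGAM5 KD libraries, with overlap and an interval of -0.06 to 0.16. For Cdca8, which encodes borealin, the interval was -0.09 to 0.11. The difference between Incenp and its partners was not tested.

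The spindle checkpoint holds cells before anaphase until every chromosome is attached, by restraining CDC20, the activator of the ubiquitin ligase APC/C. Of its 5 members (Bub1, Bub1b, Bub3, Mad2l1 and Ttk), 0 were called on FPKM by limma or by voom, with log2 fold changes from -0.12 (Ttk) to 0.10 (Bub1, the only 1 of them with an unadjusted p below 0.05), and 4 of the 5 did not overlap between groups. Over all genes 31.7% were called and 47.1% did not overlap. Bub1, a checkpoint kinase at the kinetochore, was at 42.4, 43.7 and 44.1 FPKM in control and 47.6, 45.9 and 45.9 FPKM in PGAM5 KD libraries (adjusted p = 0.0716). All 3 knockdown libraries were above all 3 controls, while for Ttk, Mad2l1 and Bub1b they were below. Those 3 genes were called lower on TPM, with adjusted p of 0.0408, 0.0396 and 0.0152, and Bub1b also with quantile normalization (0.0229).

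Cdc20 was the most abundant member. It was at 88.9, 95.7 and 91.2 FPKM in control and 97.3, 99.2 and 106.0 FPKM in PGAM5 KD libraries, without overlap, and was not called (log2 fold change 0.13 ± 0.04, SE, adjusted p = 0.0637). It was called by voom on the recovered fragments (0.0326) and among protein-coding genes alone (0.039). Cdc20 shares 53 exon bases with Elovl1 on the opposite strand. Ube2c, the E2 enzyme that works with the APC/C, had a log2 fold change of 0.04.

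Of the 5 centromere and kinetochore members, 1 fell, where 14.9% of all genes did, and 4 were not called. Cenpf (ENSMUSG00000026605, chromosome 1, 189640606 to 189688086, minus strand), a large protein of the outer kinetochore, was at 11.1, 10.9 and 10.9 FPKM in control and 9.20, 8.29 and 7.85 FPKM in PGAM5 KD libraries. Its log2 fold change was -0.35 ± 0.06 (SE, adjusted p = 0.00637), with no overlap. Cenpe, a kinetochore motor, was not called at -0.19 on the log2 scale (adjusted p = 0.0628), and was called lower without PGAM5 KD replicate 1 (adjusted p = 0.0308), on TPM (0.0251), among protein-coding genes alone (0.0394) and by voom (0.00638). Cenpa, the histone variant that marks centromeres, was at 20.6, 22.0 and 22.4 FPKM in control and 22.1, 23.8 and 22.1 FPKM in PGAM5 KD libraries, with overlap. Its confidence interval was -0.05 to 0.18.

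Ndc80 and Nuf2 are subunits of the complex that grips microtubule ends. Ndc80, the least abundant member, was at 7.75, 6.72 and 6.40 FPKM in control and 8.90, 7.29 and 7.78 FPKM in PGAM5 KD libraries. The groups overlapped and its interval, -0.04 to 0.39, was the widest of the members not called. A transcribed pseudogene, 2700099C18Rik, matched Ndc80 at 92.7% identity over 763 coding bases and carried 10.3% as many fragments as Ndc80, so reads may be divided between them, and the sum of Ndc80 and its 4 similar genes had a log2 fold change of 0.14. Nuf2 had a log2 fold change of 0.10.

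Of the 5 spindle motors and microtubule-binding proteins 1 rose, 1 fell and 3 were not called, beside 16.8% of all genes that rose and 14.9% that fell. Kif11, the kinesin that pushes spindle poles apart, was at 34.2, 34.7 and 34.0 FPKM in control and 31.2, 29.4 and 29.8 FPKM in PGAM5 KD libraries. It fell without overlap, by 0.18 on the log2 scale (SE 0.037, adjusted p = 0.011). Nusap1 (ENSMUSG00000027306, chromosome 2, 119618298 to 119651244, plus strand), which bundles spindle microtubules, was at 13.3, 14.0 and 15.5 FPKM in control and 17.0, 16.0 and 16.4 FPKM in PGAM5 KD libraries. Its log2 fold change was 0.20 ± 0.06 (SE, adjusted p = 0.0492), just inside the threshold. That call was lost without any of 5 libraries, with adjusted p of 0.129 and 0.123 without control replicates 1 and 2 and of 0.121, 0.0822 and 0.110 without PGAM5 KD replicates 1, 2 and 3. The call of Nusap1 was also lost on TPM (adjusted p = 0.195), and Nusap1 shares 172 exon bases with Oip5 on the opposite strand. Kif4, Kif2c and Hmmr were not called, with log2 fold changes from -0.09 to 0.05.

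Of the 6 members of the spindle midzone and cytokinesis 2 fell, against the same 14.9% of all genes, and 4 were not called. Kif20b, a kinesin of cytokinesis, was at 15.3, 15.7 and 14.7 FPKM in control and 13.1, 11.4 and 11.8 FPKM in PGAM5 KD libraries, without overlap (log2 fold change -0.31 ± 0.06, SE, adjusted p = 0.00815). Prc1, which bundles the microtubules of the midzone, fell by 0.15 on the log2 scale with an adjusted p of 0.0485. Its call was lost without each library in turn except PGAM5 KD replicate 1, with adjusted p of 0.0777, 0.119 and 0.128 without control replicates 1, 2 and 3 and of 0.126 and 0.136 without PGAM5 KD replicates 2 and 3. Prc1 shares 911 exon bases, 11.1% of its exon length, with Rccd1 on the opposite strand.

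Kif20a, a motor that carries the passenger complex to the midzone, was at 38.2, 36.7 and 38.3 FPKM in control and 38.4, 38.9 and 36.9 FPKM in PGAM5 KD libraries. The groups overlapped, with an interval of -0.08 to 0.10, and 29.3% of the exon length of Kif20a is shared with Cdc23 on the opposite strand. Anln, an actin-binding protein of the cleavage furrow, was at 18.2, 17.7 and 18.2 FPKM in control and 17.9, 16.8 and 15.3 FPKM in PGAM5 KD libraries, with overlap and an interval of -0.25 to 0.03. Ect2, the exchange factor that activates RhoA at the furrow, was at 17.1, 17.4 and 17.0 FPKM in control and 19.9, 18.7 and 18.3 FPKM in PGAM5 KD libraries, without overlap and with an adjusted p of 0.0564. It was called higher after centring on the library median (adjusted p = 0.0497), by voom (0.0417) and after correction for GC content and exon length (0.0207). Kif23 had a log2 fold change of -0.04.

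Of the 6 members for chromosome structure and condensin 3 fell, where 14.9% of all genes did, and 3 were not called. Mki67 (ENSMUSG00000031004, chromosome 7, 135689784 to 135716361, minus strand) encodes Ki-67, the marker of proliferating cells that coats mitotic chromosomes, and its promoter above held 2 copies of TTTGAA. It was at 59.6, 61.4 and 63.6 FPKM in control and 47.6, 42.4 and 40.9 FPKM in PGAM5 KD libraries. The groups did not overlap, and the mean changed by -29.1% (log2 fold change -0.49 ± 0.06, SE, adjusted p = 0.00135), the smallest adjusted p of the members.

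Top2a, the topoisomerase that untangles sister chromatids, was at 76.0, 80.9 and 79.8 FPKM in control and 70.6, 70.4 and 65.7 FPKM in PGAM5 KD libraries, without overlap (log2 fold change -0.19 ± 0.04, SE, adjusted p = 0.0142). Condensin, which compacts chromosomes, was represented by 4 subunits. Its regulatory subunit Ncapd2 fell by 0.19 on the log2 scale (adjusted p = 0.00688). The SMC subunit Smc2 was at 46.5, 52.0 and 49.0 FPKM in control and 47.1, 45.5 and 48.1 FPKM in PGAM5 KD libraries, with overlap and an interval of -0.18 to 0.05. Smc4 (log2 fold change -0.06) and Ncapg (0.03) were not called on FPKM.

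Exon length differed between the members that fell and those that rose. The 10 that fell had a median summed exon length of 7209 bases, the 3 that rose 4059 bases and the 31 others 4934 bases. Across the 44 members the log2 fold change and exon length had a Spearman correlation of -0.54 (Pearson -0.53 with the log2 of length), and across 10535 tested genes with a length -0.28 (Pearson -0.10). These are descriptions across genes measured in the same 6 libraries, and genes are not independent replicates. In 5 bins of exon length with nearly equal numbers of genes, from short to long, the median of all genes ran from 0.128 through 0.082, 0.026 and -0.025 to -0.095, and that of the members in the same bins was 0.157 (2 genes), 0.031 (4), 0.008 (12), -0.034 (17) and -0.181 (9). After a correction of each library for GC content and exon length, 9 of the 10 members were still called lower, Prc1 being the exception, with Cdc25c at -0.56, Mki67 at -0.38, Foxm1 and Incenp at -0.26, Kif20b at -0.25, Cenpf at -0.20, Kif11 and Ncapd2 at -0.13 and Top2a at -0.12 (adjusted p = 0.0441). Ccna2 was still called higher, Ccnb2 (0.05, adjusted p = 0.415) and Nusap1 (0.16, 0.0781) were not, and Cdk1 (0.11, 0.0442), Ect2 and Ncapg (0.15, 0.0393) were called higher. With a replicate block added to that correction, 4 of the 10 were still called lower, beside 1023 of 10540 genes. Cenpf (adjusted p = 0.0523), Foxm1 (0.0593), Kif11 (0.0633), Ncapd2 (0.064), Top2a (0.0768) and Prc1 (0.222) were not, and only Ccna2 was called higher.

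**Figure D3:**
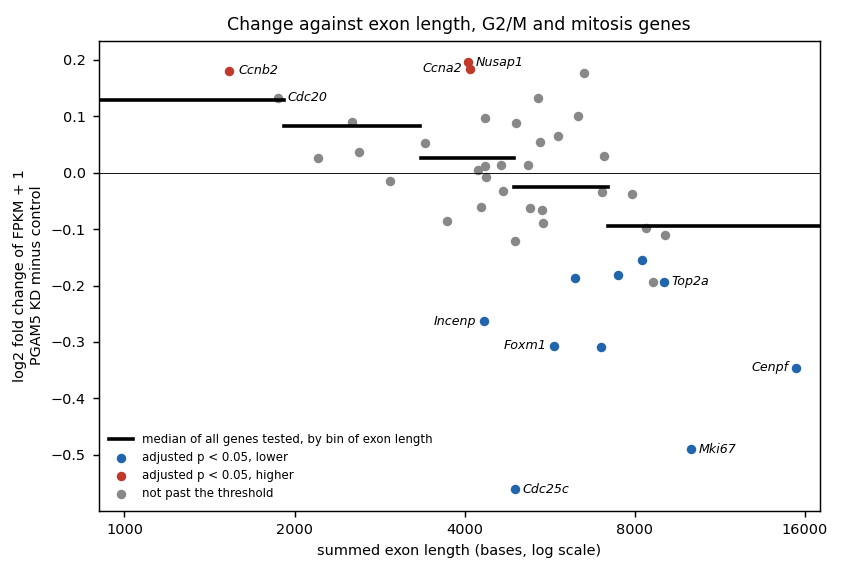
Log2 fold change of FPKM + 1 (y axis) against summed exon length (x axis, log scale) for the 44 late cell cycle genes, with black lines for the median of all genes tested in each of 5 bins of exon length, drawn only within the axis. The medians step down from 0.128 to -0.095, and Cdc25c (-0.56) and Mki67 (-0.49) are the lowest points.

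Other genes of G2 and mitosis were counted from a separate list of 94, also chosen with earlier results of these data known. Of these 14 rose (14.9%, against 16.8% of all genes) and 21 fell (22.3%, against 14.9%), with a median log2 fold change of 0. On TPM 7 rose (7.45%, against 10.3%) and 31 fell (33.0%, against 21.7%), with a median of -0.077. Without control replicate 3 or PGAM5 KD replicate 3, 9 rose (9.57%, against 12.2% and 11.5% of all genes). Without control replicate 2, 14 fell (14.9%, against 11.0%). The 4 with the largest falls were Gas2l3 (-0.97), a protein linking actin and microtubules, Spdl1 (-0.58), which brings dynein to kinetochores, Aspm (-0.44), a spindle pole protein, and Pif1 (-0.44), a DNA helicase. The 4 with the largest rises were Psrc1 (0.48), a spindle protein, the centromere proteins Cenpp (0.47) and Cenpq (0.35), and Zw10 (0.33), which acts in the spindle checkpoint. Gas2l3 was at 20.7, 20.7 and 19.1 FPKM in control and 9.78, 10.4 and 9.29 FPKM in PGAM5 KD libraries, a larger change than in any of the 44. Wee1, the kinase that opposes CDC25 on CDK1, was singled out after its values were seen and fell from 14.7, 15.2 and 13.6 FPKM to 10.6, 10.6 and 11.8 FPKM (log2 fold change -0.37 ± 0.06, SE, adjusted p = 0.00522).

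Of 60 genes of DNA replication and the G1/S step 11 rose (18.3%, against 16.8% of all genes) and 6 fell (10.0%, against 14.9%), with a median log2 fold change of 0.049. On TPM 4 rose (6.67%, against 10.3%) and 10 fell (16.7%, against 21.7%), with a median of -0.025. Leaving out any library lowered the number that rose by over 1.5 times: it was 7 (11.7%, against 13.2% and 12.8% of all genes) without control replicates 1 and 2, 4 (6.67%, against 12.2%) without control replicate 3, 6 (10.0%, against 14.2%) and 5 (8.33%, against 12.3%) without PGAM5 KD replicates 1 and 2, and 7 (11.7%, against 11.5%) without PGAM5 KD replicate 3. The difference between the lists was not tested. Cyclins D3 (Ccnd3, 0.51) and D1 (Ccnd1, 0.47), which start the passage through G1, rose with Fen1 (0.34), a flap endonuclease, and Rrm2 (0.32), a subunit of ribonucleotide reductase. The call of Fen1 (adjusted p = 0.0463) was lost on TPM (0.0873) and after the GC content and exon length correction (0.124). Gins3 (-0.46), Cdc7 (-0.42), Atad2 (-0.39) and Ticrr (-0.37) fell, of which Gins3, Cdc7 and Ticrr act in the firing of replication origins.

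The largest rise in these 4 cell cycle lists was in that of CDK inhibitors, p53 and RB/DREAM genes, while the highest log2 fold change of all genes tested was 3.15. Cdkn1a, which encodes the CDK inhibitor p21, was at 33.9, 32.8 and 34.6 FPKM in control and 71.4, 71.8 and 71.7 FPKM in PGAM5 KD libraries, a log2 fold change of 1.06 ± 0.03 (SE, adjusted p = 7.42e-06). The groups did not overlap and the mean was 2.12 times the control. Of 17 genes tested in this list 5 rose (29.4%, against 16.8% of all genes) and 1 fell (5.88%, against 14.9%), and on TPM 3 rose (17.6%, against 10.3%) and 1 fell (5.88%, against 21.7%). Without control replicate 1 or 2 or PGAM5 KD replicate 2 or 3, 3 rose (17.6%, against 13.2%, 12.8%, 12.3% and 11.5% of all genes in that order). Cdkn1c, Cdkn2a and Cdkn2b were listed at 0 in every library. Cdkn2d, which encodes the inhibitor p19 of CDK4 and CDK6, rose by a log2 fold change of 0.63 and Ccng1, a p53 target, by 0.55. Mdm2, another p53 target, was not called (log2 fold change 0.05, confidence interval -0.05 to 0.15). Lin52 (0.26), a MuvB subunit, also rose (adjusted p = 0.0398), a call lost on TPM (0.0889) and after the GC content and exon length correction (0.111). Lin54 (-0.26), the MuvB subunit that binds TTTGAA, fell (adjusted p = 0.0417), but with no filter on low values, without control replicate 2 or 3 or without PGAM5 KD replicate 2 or 3 the list had 0 lower genes. The transcript of p53 itself, Trp53, had a log2 fold change of 0.05 with a confidence interval of -0.02 to 0.13.

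**Figure D4:**
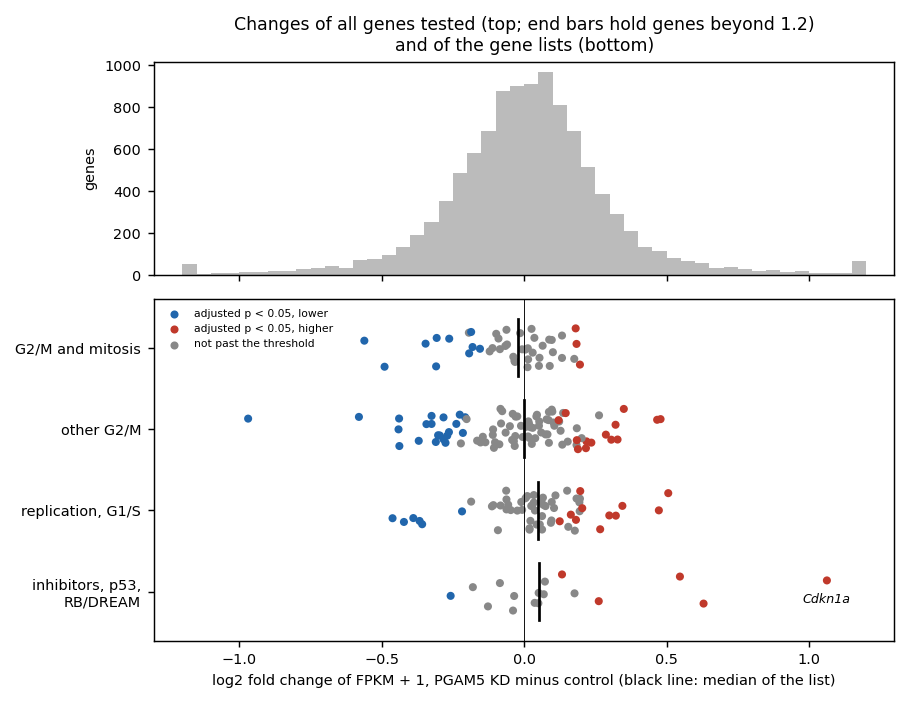
Log2 fold change of FPKM + 1, PGAM5 KD minus control (x axis), as a histogram of all 10540 genes tested (top) and as points for the genes of each list (bottom), with black lines at the list medians. The medians of the 4 lists lie between -0.023 and 0.051, and Cdkn1a stands apart at 1.06.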

How the data were processed

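Poly(A) RNA of 3 control and 3 PGAM5 KD iBMDM samples was sequenced, and groups came from the labels. The authors deposited FPKM per gene, and their processing notes name HISAT2 2.0.5, featureCounts 1.5.0-p3 and mm10. The strand setting and annotation release are not given in the sources used here. Names, coordinates and exon lengths came from GENCODE M21. FPKM multiplied by exon length gave whole fragments within 0.01 for 96.8 to 97.1% of values under 1000 fragments, from which depth was taken. No depth-based interval was used.

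Genes whose FPKM averaged 1 or more were tested on log2(FPKM + 1) with limma 3.58.1 in R 4.3.3 (two-sided; lmFit and eBayes, trend on), with Benjamini-Hochberg adjustment over all 10540 genes, and called at an adjusted p below 0.05. Fold changes on this scale understate those of low genes. SE is from limma, and confidence intervals are 95%. Values in every library are given for the 6 members with the highest and the 6 with the lowest fold change and for leading members of each role, 25 in all. In the other lists the 4 genes with the largest called change in each direction are named by their fold change. Similar genes were found by blastn 2.17.0 of coding sequences (at least 85% identity over 200 bases). Members and lists were chosen with earlier results of these data known. Of 96 other G2/M symbols 94 matched the annotation. Replicate libraries differed by more than counting noise. The tests were checked on simulated data. Alternatives were a pseudocount of 0.1, no filter, a minimum of 5 FPKM, TPM, quantile normalization, median centring, no trend, protein-coding genes only, voom on recovered fragments, a GC content and exon length correction, a replicate block with and without that correction, and leaving out each library.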

Additional observations from a re-analysis of the deposited data

How the results depend on the processing

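Among the 44 late cell cycle genes, no called direction was reversed in any alternative. The number called higher, 3, became 0 on TPM, 1 with quantile normalization, 5 by voom, and 1 to 2 when a library was left out, being 1 without control replicate 1 or PGAM5 KD replicate 3. The number called lower, 10, became 8 to 11 when a library was left out. The median log2 fold change, -0.023, became -0.101 on TPM, -0.059 with quantile normalization, and -0.031 to -0.018 when a library was left out. Over all genes, 1771 higher and 1575 lower became 1088 higher on TPM, with 2282 lower, and 1211 to 1497 higher and 1129 to 1361 lower when a library was left out.

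Of the other G2/M genes, 14 higher became 9 with no filter, 7 on TPM, 8 with quantile normalization, 9 after the GC content and exon length correction and 9 to 12 when a library was left out (9 without control replicate 3 or PGAM5 KD replicate 3), and 21 lower became 31 on TPM and 14 to 19 when a library was left out. Of the G1/S genes, 11 higher became 4 with no filter, 4 on TPM, 7 with quantile normalization, 6 with no trend and 4 to 7 when any library was left out, and 6 lower became 10 on TPM and 6 to 7 when a library was left out. Of the inhibitor list, 5 higher became 3 on TPM and 3 to 5 when a library was left out, and 1 lower became 0 with no filter, 2 with quantile normalization and 0 to 1 when a library was left out.

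Replicate numbers did not pair the libraries: same-numbered deviations correlated at -0.02, 0.016 and -0.052. With the replicate block, 1440 of 10540 genes were called higher and 1212 lower. Of the 44 members 1 was called higher and 9 lower, and of 94 other G2/M genes 10 and 16. Of 60 G1/S genes 4 were called higher and 6 lower, and of 17 inhibitor genes 3 and 0. With the block and the GC content and exon length correction, 1180 of 10540 genes were called higher and 1023 lower. Of the 44 members 1 was called higher and 4 lower. Foxm1, Cenpf, Kif11, Prc1, Top2a and Ncapd2 were no longer called lower, and Ccnb2 and Nusap1 no longer higher. Of 94 other G2/M genes 6 were called higher and 18 lower. Of 60 G1/S genes 5 were called higher and 5 lower, and of 17 inhibitor genes 4 and 0. The causes were not tested. Replicate libraries differed by 5.06 to 8.92 times what counting alone gives (chi-square per degree of freedom), and no exact permutation test of 3 against 3 can reach 0.05.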
